A study of Mus musculus with 118 samples.

Results

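The Pax genes encode transcription factors that bind DNA through a paired domain and direct the formation of organs and cell lineages in the embryo. All 9 mouse members, Pax1 to Pax9, were taken out of 26182 genes with a curated RefSeq transcript. For each one the promoter was the transcription start site (TSS) plus or minus 2500 bp, and the gene body was the span of its curated transcripts. Both were set against the peaks listed for the Polycomb proteins RING1B, SUZ12 and PCGF2 in mouse embryonic stem cells (ESCs). Members were taken by name and not by a threshold on the peaks, although earlier results of these data were known when the family was chosen.

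The lists came from calibrated chromatin immunoprecipitation and sequencing (cChIP-seq), in which cells of another species are added as an internal standard, here the human line HEK293T. The study holds 118 samples in 42 groups, and the peaks were called in untreated cells (0 hr) with strain label E14, grown in serum with leukemia inhibitory factor, of the PRC1CPM and PRC1CKO lines for RING1B and SUZ12 and of PRC1CPM alone for PCGF2. The RING1B list was also filtered by loss of signal in tamoxifen-treated PRC1CKO cells. PRC1CPM (clone 41) carries Ring1aI50A/D53K, the allele Ring1b(WT->I53A/D56K)fl/fl that tamoxifen switches to a catalytically dead form, and Rosa26::ERT2-Cre. PRC1CKO (clone B9) is Ring1a-/- with Ring1bfl/fl and Rosa26::ERT2-Cre, so both lines already lacked normal RING1A before any treatment, and each line is a single clone. Untreated samples numbered 3 for each of these proteins in PRC1CPM and 3 for SUZ12 in PRC1CKO. RING1B samples of PRC1CKO are not among the 118, and the paper lists them as published data. Each list is a single set of positions with no peak height, read depth or replicate, so the values below have no replicate error and no test was run. The peak lists hold no expression, so the ESC label was not checked by marker genes.

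RING1B is the catalytic core of Polycomb repressive complex 1 (PRC1), which ubiquitylates histone H2A. SUZ12 is a core subunit of PRC2, which methylates histone H3 at lysine 27, and PCGF2 belongs to canonical PRC1, which binds that methyl mark through a CBX subunit. In ESCs these complexes occupy CpG-rich promoters of developmental regulators that are silent there and switched on later. Pax genes fall into groups by the domains of their proteins. Pax1 and Pax9 have a paired domain and an octapeptide, Pax2, Pax5 and Pax8 add a partial homeodomain, Pax3 and Pax7 have a complete homeodomain, and Pax4 and Pax6 have a complete homeodomain without the octapeptide.

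The DNA just ahead of the start sites differed among the members. The RefSeq promoter table used here (build GRCm38.p6, which is mm10) held 10 start sites of 7 Pax genes. It had no entry for Pax3 or Pax4. The 250 bases before 5 of these starts are shown, 1 for each of 5 genes, as examples in order of falling CpG count. Each CpG, the dinucleotide that Polycomb-occupied promoters are rich in, is in capitals. They lie on chr19:44756656-44756905 (plus strand, Pax2, the third start), chr4:44710695-44710944 (minus strand, Pax5), chr2:105668646-105668895 (plus strand, Pax6, the first start), chr2:147364744-147364993 (plus strand, Pax1) and chr2:24475600-24475849 (minus strand, Pax8).
Pax2: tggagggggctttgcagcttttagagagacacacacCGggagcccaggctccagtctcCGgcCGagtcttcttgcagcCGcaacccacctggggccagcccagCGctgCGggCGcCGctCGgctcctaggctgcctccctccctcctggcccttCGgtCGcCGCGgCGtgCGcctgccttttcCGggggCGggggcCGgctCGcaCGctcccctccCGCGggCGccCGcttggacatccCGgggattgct
Pax5: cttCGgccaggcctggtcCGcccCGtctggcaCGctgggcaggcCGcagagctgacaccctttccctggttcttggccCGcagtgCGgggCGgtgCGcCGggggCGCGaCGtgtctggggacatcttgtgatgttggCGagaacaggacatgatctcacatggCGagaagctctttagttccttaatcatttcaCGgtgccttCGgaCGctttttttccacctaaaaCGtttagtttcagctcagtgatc
Pax6: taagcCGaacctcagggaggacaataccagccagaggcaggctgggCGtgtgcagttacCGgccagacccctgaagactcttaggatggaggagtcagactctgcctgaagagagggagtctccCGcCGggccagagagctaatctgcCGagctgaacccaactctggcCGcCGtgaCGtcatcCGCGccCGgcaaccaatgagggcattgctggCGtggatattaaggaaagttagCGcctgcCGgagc
Pax1: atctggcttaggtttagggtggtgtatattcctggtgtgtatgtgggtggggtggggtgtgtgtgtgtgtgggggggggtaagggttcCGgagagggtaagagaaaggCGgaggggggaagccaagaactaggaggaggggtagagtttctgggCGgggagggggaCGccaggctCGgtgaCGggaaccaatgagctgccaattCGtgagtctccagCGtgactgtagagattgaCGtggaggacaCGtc
Pax8: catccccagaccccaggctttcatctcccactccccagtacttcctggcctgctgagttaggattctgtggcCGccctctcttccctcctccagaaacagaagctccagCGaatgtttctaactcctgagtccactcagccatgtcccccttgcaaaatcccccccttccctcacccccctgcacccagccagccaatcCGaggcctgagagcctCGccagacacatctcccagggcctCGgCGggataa
The Pax2 stretch held 25 CpGs, Pax5 19, Pax6 15, Pax1 10 and Pax8 6. Over all 32851 promoters of the table the median was 6 CpGs in the same 250 bases (interquartile range 2 to 16), and 92.1% held at least 1. CpG reads the same on both strands. The third start of Pax2 was thus richer in CpG than 89.3% of promoters, and Pax8 was richer than 49.6%. The starts of Pax2 differed among themselves, since its second start held 20 CpGs and its first start 5, fewer than Pax8.

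Polycomb peaks were present at every Pax promoter, but not from every list. A RING1B peak overlapped a promoter of 8 of the 9 genes, against 53.2% of all genes. A SUZ12 peak overlapped a promoter of 9, against 24.8% of all genes, and a PCGF2 peak of 8, against 13.5%. Peaks of all 3 lists met at the promoters of 8 Pax genes, namely Pax1, Pax2, Pax3, Pax5, Pax6, Pax7, Pax8 and Pax9, whereas 13.4% of all genes had all 3. The exception was Pax4, whose only promoter peak was a SUZ12 peak of 305 bp, 1945 to 2249 bp upstream of the TSS. The 9 genes have 14 distinct curated TSSs, and 13 of them lay inside a peak of all 3 lists, including the 3 starts of Pax2 and the 4 starts of Pax6. The TSS of Pax4 lay in none. In RING1B alone, 8 genes had a TSS inside a peak, against 48% of all genes. No Pax gene was without a promoter peak of any list, against 46.5% of all genes. At Pax4 this rests on the 305 bp peak, which a promoter of 1000 bp either side did not reach.

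**Figure D1:**
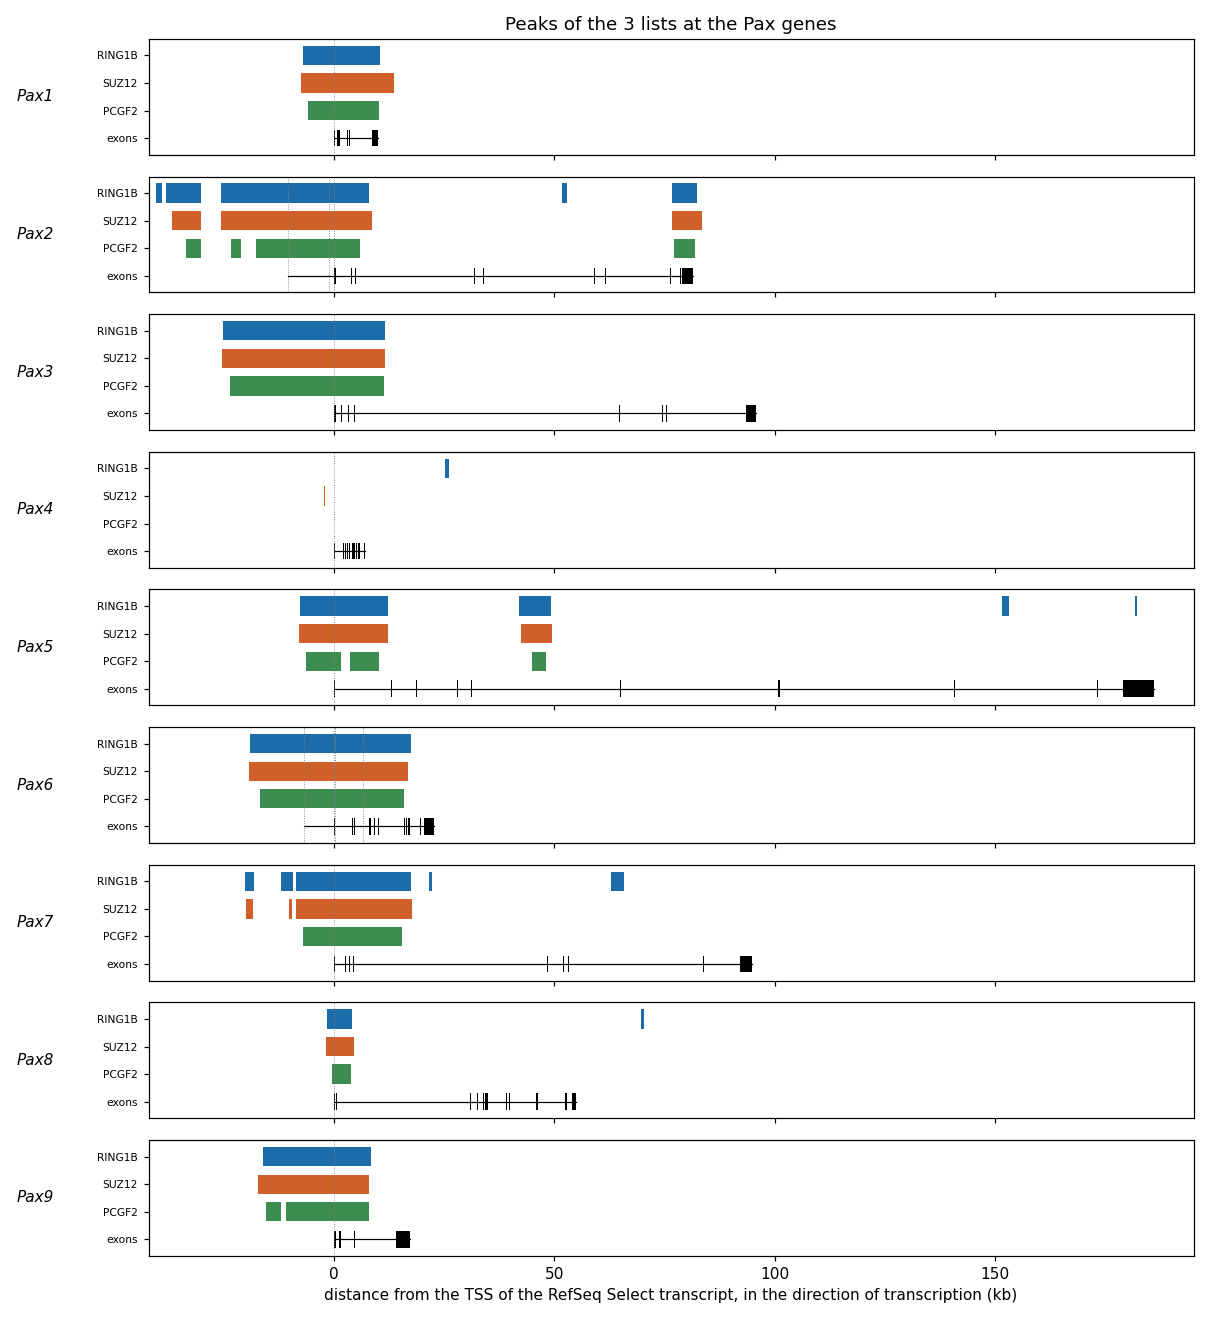
Peaks of RING1B (blue), SUZ12 (orange) and PCGF2 (green) at the 9 Pax genes, with distance from the TSS of the RefSeq Select transcript in kb on the horizontal axis, in the direction of transcription. Black boxes are exons of that transcript, the black line is the gene and dotted lines mark the curated TSSs. At 8 genes the 3 bars stack around the TSS. At Pax4 a SUZ12 peak of 305 bp stands upstream and a RING1B peak of 1002 bp stands past the 3' end.

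The peaks were wide. Among the 8 genes with a promoter RING1B peak, the median of the widest one was 25270 bp, from 5748 bp at Pax8 to 36873 bp at Pax3. Over the 13922 genes with such a peak the median was 1810 bp (interquartile range 1089.25 to 3374.75), which is 13.96-fold lower. Over the 3508 genes with all 3 lists it was 4917.5 bp, 5.14-fold lower. A promoter RING1B peak of at least 10000 bp was found at 7 Pax genes, all but Pax4 and Pax8, and at 2.43% of all genes. For SUZ12 the median was 25062 bp over 9 Pax genes against 3232 bp over all genes with a peak, and for PCGF2 it was 20744 bp over 8 against 2912 bp. Each list had calling rules of its own, so differences in width between lists may carry those rules with them.

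**Figure D2:**
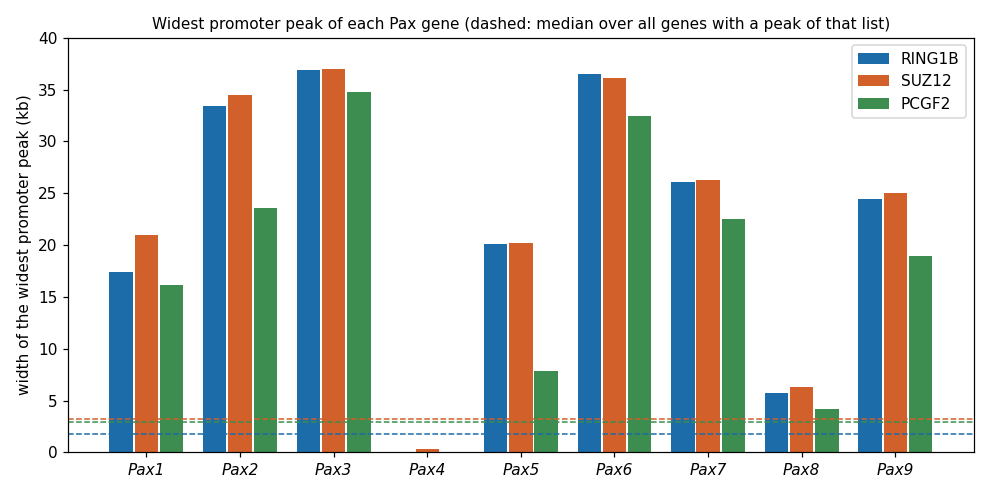
Width in kb of the widest promoter peak of each Pax gene in the RING1B, SUZ12 and PCGF2 lists, 1 bar per list, with the median over all genes that have a peak of that list as a dashed line. At 8 genes every bar stands above its dashed line, from 4206 bp at Pax8 for PCGF2 upward, and at Pax4 the 305 bp SUZ12 bar stands below it.

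In RING1B width the order was Pax3 (36873 bp), Pax6 (36477 bp), Pax2 (33419 bp), Pax7 (26049 bp), Pax9 (24491 bp), Pax5 (20091 bp), Pax1 (17392 bp) and Pax8 (5748 bp). The widest pair, Pax3 and Pax6, differed by 396 bp, and the largest step was the 11644 bp between Pax1 and Pax8. Without replicates it cannot be said which neighbours in this order differ beyond experimental spread. The order was the same in SUZ12 and PCGF2, except that Pax1 stood before Pax5 in both and Pax4 closed the SUZ12 list. The width at Pax3 was matched or exceeded by few genes, since 97 of the 13922 had a wider promoter RING1B peak. At Pax8 the number was 1627, and its peak was still wider than that of 88.3% of genes with one. Set against the genes with all 3 lists only, Pax8 was wider than 59.5% of them in RING1B, and the other 7 Pax genes were wider than 92.02% (Pax1) to 97.1% (Pax3).

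**Figure D3:**
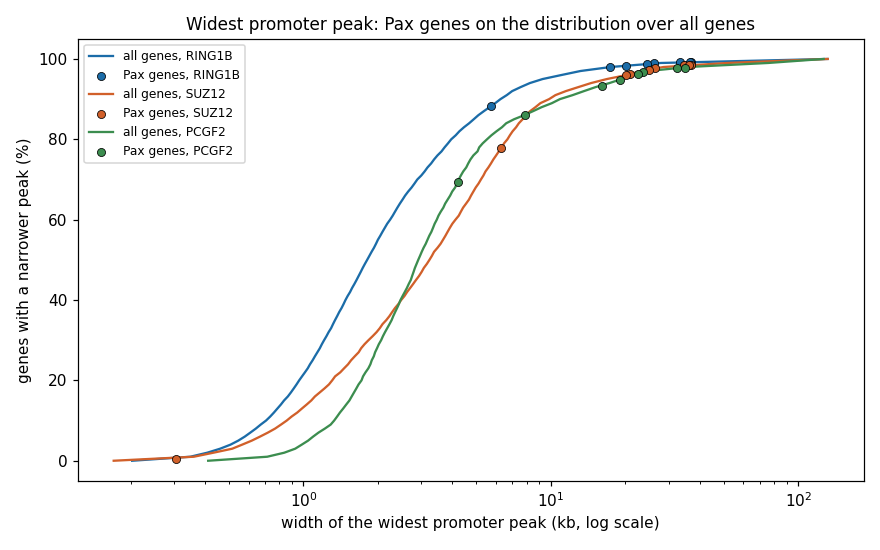
Percent of genes with a narrower widest promoter peak against the width of that peak in kb on a log axis. Lines run over all genes with a peak of RING1B (13922), SUZ12 (6487) or PCGF2 (3522), and points are the Pax genes, which gather at the upper right except Pax8 in the 3 lists, Pax5 in PCGF2 and Pax4 in SUZ12 at the lower left.

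The members are described next by protein group. Pax1, which patterns the vertebral column and the pharyngeal pouches, lies on chromosome 2 from 147364994 to 147375049 on the plus strand, with 5 exons. Its RING1B peak ran from 147358075 to 147375466 and took in the entire gene, and so did the SUZ12 peak from 147357589 to 147378567 (20979 bp) and the PCGF2 peak from 147359182 to 147375346 (16165 bp). SUZ12 went 3101 bp past the downstream edge of RING1B, the largest such excess among the Pax genes. The start of the non-coding gene AI646519, on the opposite strand, lay inside the same 3 peaks, 2201 bp from the Pax1 TSS.

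Pax9, needed for teeth, the thymus and parts of the skeleton, lies on chromosome 12 from 56695471 to 56712822 on the plus strand. Its RING1B peak ran from 56679509 to 56703999, with 15962 bp upstream of the TSS and 8528 bp downstream, and touched exons 1 to 3 of 4. RING1B thus covered 49.2% of the Pax9 gene body and 100% of that of Pax1. The SUZ12 peak was 25062 bp wide. The promoter PCGF2 peak was 18975 bp, and a second PCGF2 peak of 3417 bp, from 56680095 to 56683511, lay further upstream within the RING1B peak.

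Pax2, a regulator of kidney, optic stalk and inner ear, lies on chromosome 19 from 44746601 to 44838269 on the plus strand. A RING1B peak from 44731367 to 44764785 held all 3 starts, extended 25539 bp upstream of the TSS of the RefSeq Select transcript, the one RefSeq marks as representative (Select TSS), and 7879 bp downstream of it, and reached exon 3 of 10. SUZ12 covered nearly the same stretch (34434 bp, 44731232 to 44765665). PCGF2 was cut shorter there, with 23558 bp from 44739372 to 44762929, whose upstream edge was 8005 bp inside that of RING1B, and a separate PCGF2 peak of 2118 bp from 44733663 to 44735780 lay further out. At the other end of the gene, over exons 9 and 10, stood a second site of all 3 lists, 5658 bp in RING1B, 6814 bp in SUZ12 and 4716 bp in PCGF2. The start of the non-coding 1700039E22Rik, antisense to Pax2, lay in it. A further site of all 3 lay ahead of the gene, outside the promoter and gene body, with 7863 bp of RING1B (44718942 to 44726804), 6678 bp of SUZ12 (44720178 to 44726855) and 3561 bp of PCGF2 (44723317 to 44726877). The nearer edges of these peaks were 19724 to 19797 bp from the first start.

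Pax5, which holds B lymphocytes to their identity, is the longest member at 185947 bp, on chromosome 4 from 44524748 to 44710694 on the minus strand. Its promoter RING1B peak ran from 44698367 to 44718457 (20091 bp) and the SUZ12 peak from 44698398 to 44718591 (20194 bp), with edges within 134 bp of each other on both sides. PCGF2 divided the same stretch into a promoter peak of 7872 bp (44709107 to 44716978) and an intronic peak of 6605 bp (44700402 to 44707006). The 7872 bp peak was the only one of the 8 promoter PCGF2 peaks narrower than the RING1B peak by more than 10 kb, since its downstream edge lay 10740 bp inside. The start of 5730488B01Rik, a non-coding gene on the opposite strand, lay in the intronic PCGF2 peak and in the RING1B and SUZ12 peaks around it. A second site of all 3 lists lay in an intron 41961 bp downstream of the TSS, with 7246 bp of RING1B, 6852 bp of SUZ12 and 3196 bp of PCGF2.

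Pax8, required for the thyroid, lies on chromosome 2 from 24420551 to 24475599 on the minus strand. Its peaks were the narrowest of the 8, with 5748 bp of RING1B (24471475 to 24477222), 6316 bp of SUZ12 (24470969 to 24477284) and 4206 bp of PCGF2 (24471699 to 24475904). They reached 1623, 1685 and 305 bp upstream of the TSS and touched exons 1 and 2 of 12. Within the Pax2, Pax5 and Pax8 group the RING1B widths thus ran from 5748 to 33419 bp. The Pax1 and Pax9 pair had 17392 and 24491 bp, and the Pax3 and Pax7 pair 36873 and 26049 bp. In the Pax4 and Pax6 pair, Pax6 had 36477 bp and Pax4 had no promoter RING1B peak.

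Pax3, which acts in neural crest and muscle progenitors, lies on chromosome 1 from 78101267 to 78197136 on the minus strand. Its peaks were the widest of the family in every list, with 36873 bp of RING1B (78185446 to 78222318), 36950 bp of SUZ12 (78185440 to 78222389) and 34756 bp of PCGF2 (78185821 to 78220576). The RING1B and SUZ12 edges differed by 71 bp upstream and 6 bp downstream. Of the RING1B peak, 25182 bp lay upstream of the TSS, so that it covered 12.2% of the gene body. The starts of Gm33152 (non-coding) and Gm2102 (coding) lay in this upstream part, 4086 and 21134 bp from the Pax3 TSS.

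Pax7, a marker of muscle satellite cells, lies on chromosome 4 from 139738081 to 139832968 on the minus strand. The RING1B peak of 26049 bp (139815546 to 139841594) had its longer part in the gene, 17422 bp downstream of the TSS against 8626 bp upstream, the opposite of Pax3. SUZ12 covered 26298 bp (139815265 to 139841562) and PCGF2 22513 bp (139817496 to 139840008). Ahead of this domain lay RING1B peaks of 2603 bp and 2162 bp, each with a SUZ12 peak (868 and 1532 bp) and neither with PCGF2. Further RING1B peaks of 2905 bp and 767 bp lay in introns, with no peak of the other lists.

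Pax6, a regulator of eye, brain and pancreatic islets, lies on chromosome 2 from 105668896 to 105698410 on the plus strand. A single peak of each list held its 4 starts, 36477 bp in RING1B (105656806 to 105693282), 36124 bp in SUZ12 (105656533 to 105692656) and 32479 bp in PCGF2 (105659116 to 105691594). These covered 82.6%, 80.5% and 76.9% of the gene body, and the RING1B peak reached exon 10 of 12. Pax6 was the member with the SUZ12 peak narrower than the RING1B peak. The starts of Pax6os1 and Paupar, non-coding genes on the opposite strand, lay inside the same 3 peaks, 5414 and 14401 bp from the Select TSS.

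Pax4, which acts with Pax6 in pancreatic islets and specifies beta cells, differed from all of these. It lies on chromosome 6 from 28442334 to 28449340 on the minus strand, with 11 exons in 7007 bp. No RING1B or PCGF2 peak overlapped its promoter or gene body. A SUZ12 peak of 305 bp, from 28451285 to 28451589, lay 1945 to 2249 bp upstream of the TSS and outside the gene. Only 0.478% of the genes with a promoter SUZ12 peak had a narrower widest one. Having SUZ12 without RING1B at a promoter was uncommon, with 0.294% of all genes (77 genes). The RING1B filter for loss on tamoxifen was not applied to SUZ12, and its part in this result was not tested. The nearest RING1B peak within 20 kb of Pax4 was 1002 bp wide, 18142 bp past its 3' end, at the start of Arf5. The lists give no read depth, so a missing peak does not show that the protein is absent. The central 300 bases of the SUZ12 peak, chr6:28451288-28451587 on the plus strand of mm10, are shown because this peak carries the exception. They held 13 CpGs, given in capitals.
Pax4 upstream SUZ12 peak: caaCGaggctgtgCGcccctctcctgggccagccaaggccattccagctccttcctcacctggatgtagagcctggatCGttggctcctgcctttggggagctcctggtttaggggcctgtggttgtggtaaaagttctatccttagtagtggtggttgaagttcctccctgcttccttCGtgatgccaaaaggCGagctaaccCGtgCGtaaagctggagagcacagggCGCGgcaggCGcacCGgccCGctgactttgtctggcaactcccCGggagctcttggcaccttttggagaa
The TSS region of Pax4 itself was poor in CpG, with 3 within 500 bp of the TSS on either side.

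The lists were then compared edge by edge over the widest promoter peaks of the 8 genes. SUZ12 went past RING1B at 12 of the 16 edges, and the median distance between both edges was 277 bp, from 6 bp at Pax3 to 3101 bp at Pax1. At 10 edges the lists differed by at most 500 bp. The SUZ12 peak was the wider one at 7 of the 8 genes, against 66.7% of all genes with the 3 lists. The widest PCGF2 peak ended inside RING1B at 16 of 16 edges, by a median of 1637 bp, from 120 bp at Pax1 to 10740 bp at Pax5. At Pax5 (10740 bp downstream), Pax2 (8005 bp upstream) and Pax9 (5053 bp upstream) a further PCGF2 peak lay between that edge and the RING1B edge. These 3 distances thus do not show where PCGF2 peaks stop within the RING1B peak. The widest PCGF2 peak was narrower than that of RING1B at 8 of 8 genes, which holds for 98.9% of all genes with the 3 lists and so sets the Pax genes little apart. The edge counts and distances were not set beside the same values over all genes.

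**Figure D4:**
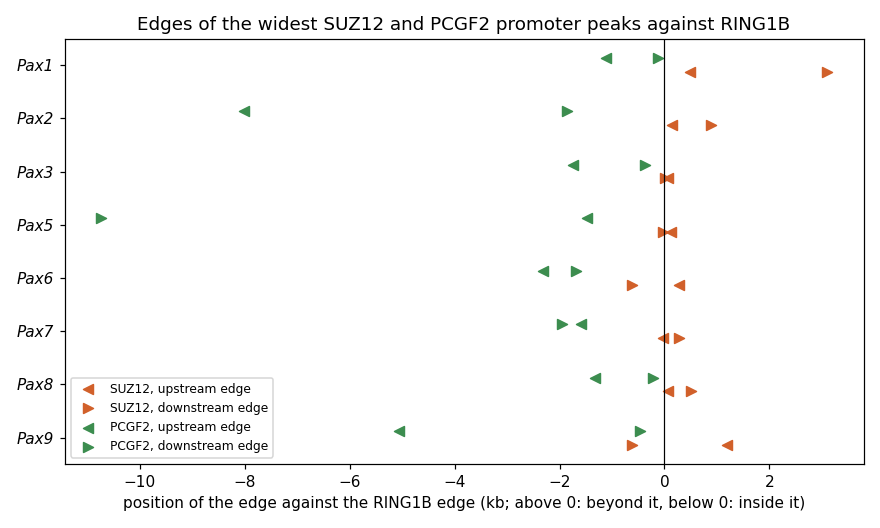
Distance in kb of the upstream and downstream edges of the widest SUZ12 (orange) and PCGF2 (green) promoter peaks from the RING1B edge on the same side, at the 8 Pax genes with all 3 lists. Above 0 the peak goes past RING1B and below 0 it ends inside. SUZ12 edges run from -626 bp at Pax6 to 3101 bp at Pax1, and 10 of the 16 lie within 500 bp of 0. The PCGF2 edges sit below 0, the farthest at Pax5 and Pax2. At Pax5, Pax2 and Pax9 a further PCGF2 peak, not drawn, lies nearer the RING1B edge.

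Counted in bases, 96.4% of the SUZ12 sequence at Pax promoter peaks lay within RING1B peaks (88.4% over the genes with all 3 lists), and 99.3% of the RING1B sequence lay within SUZ12 (93.05%). Of the PCGF2 sequence, 99.9% lay within SUZ12 (98.7%) and 100% within RING1B (99.7%). In the other direction, PCGF2 covered 86.1% of the RING1B sequence at Pax promoter peaks, against 67.1% over the genes with all 3 lists. By gene this share was lowest at Pax5 (72.1%), Pax8 (73.2%) and Pax2 (76.8%). Pax7 (86.4%), Pax6 (89.04%), Pax9 (91.4%), Pax1 (92.9%) and Pax3 (94.3%) followed. The lowest 3 form a protein group, but a link between group and coverage was not tested. A widest RING1B peak that overlapped more than 1 PCGF2 peak was found at Pax2, Pax5 and Pax9, 3 of the 8 genes, against 4.96% of all genes with the 3 lists. Wide peaks have more room for this. The Pax RING1B peaks were wider than those of the genes with all 3 lists (median 25270 against 4917.5 bp). No comparison at equal width was made, for this count or for the shares above.

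Beyond the promoters, 7 RING1B peaks lay in the bodies of 3 Pax genes, Pax2, Pax5 and Pax7, against 9.4% of all genes with such a peak. Among genes of 50000 to 200000 bp, the range that holds 5 of the members, the share was 18%, and 3 of the 5 had one. SUZ12 and PCGF2 each had such peaks in Pax2 and Pax5, 2 of the 9 genes, against 3.7% and 1.61% of all genes. The 7 RING1B peaks differed in kind. The 5658 bp peak of Pax2 and the 7246 bp peak of Pax5 each overlapped SUZ12 and PCGF2 and a CpG-rich segment, defined here as 500 bp windows with GC content of at least 55% and CpG observed/expected of at least 0.65, merged where they touch. CpG observed/expected is the count of CpGs relative to that set by the C and G content of the same stretch. The other 5, from 518 bp at the last exon of Pax5 to 2905 bp in Pax7, had no such segment and no SUZ12 or PCGF2 peak. Over the entire RING1B list, 50.6% of peaks with a CpG-rich segment and 15.3% of those without overlapped SUZ12, and 28.2% and 3.02% overlapped PCGF2. With the promoter peaks counted in, RING1B peaks covered 21.4% of the Pax gene bodies, SUZ12 20.2% and PCGF2 17.6%. Over the bodies of all genes the shares were 2.66%, 1.91% and 0.988%. The share covered by peaks beyond the promoters alone was not computed.

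As these complexes occupy CpG-rich DNA, CpG content was read along the loci. Within the Pax genes and 2500 bp on either side lay 25 CpG-rich segments, and 25 of 25 overlapped peaks of RING1B, SUZ12 and PCGF2. Over the genome, 68.8% of 19763 such segments overlapped RING1B, 37.8% SUZ12 and 23.1% PCGF2. Pax4 was the only member with no segment, and a promoter segment was present at 8 Pax genes and at 54.2% of all genes. The widest RING1B peaks held 1 segment at Pax8, 2 at Pax1, 4 at Pax3, Pax7 and Pax9, 5 at Pax5 and Pax6 and 6 at Pax2. The median of 4 compares with 1 over the peaks of genes with all 3 lists and 3 over those of at least 10000 bp, a width that Pax8 does not reach.

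Most of the sequence under the wide peaks was not CpG-rich. The segments made up 12.6% of the RING1B peak at Pax3, 13.3% at Pax6, 13.8% at Pax1, 15.5% at Pax9, 16.5% at Pax8, 21.8% at Pax2, 22.8% at Pax7 and 23.4% at Pax5. The median of 16.02% was below the 22.6% of RING1B peaks of at least 10000 bp at genes with all 3 lists. Over such peaks of any width the median was 31.6%. The Pax median includes Pax8, whose peak is under 10000 bp, and no comparison at equal width was made. CpG observed/expected over the peaks ran from 0.375 (Pax7) to 0.440 (Pax6), and in the 5000 bp flanks from 0.0923 to 0.250. It was above both flanks at 8 of 8 genes, and 98.8% of the like peaks of all genes with the 3 lists showed the same. Within 500 bp of the Select TSS it was 0.763 at Pax2, 0.741 at Pax7, 0.734 at Pax6, 0.733 at Pax5, 0.673 at Pax1, 0.671 at Pax3, 0.560 at Pax9, 0.221 at Pax8 and 0.0516 at Pax4, with a median of 0.522 over all genes and 0.722 over the genes with all 3 lists. The single segment of Pax8 was centred 1324 bp downstream of its TSS.

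**Figure D5:**
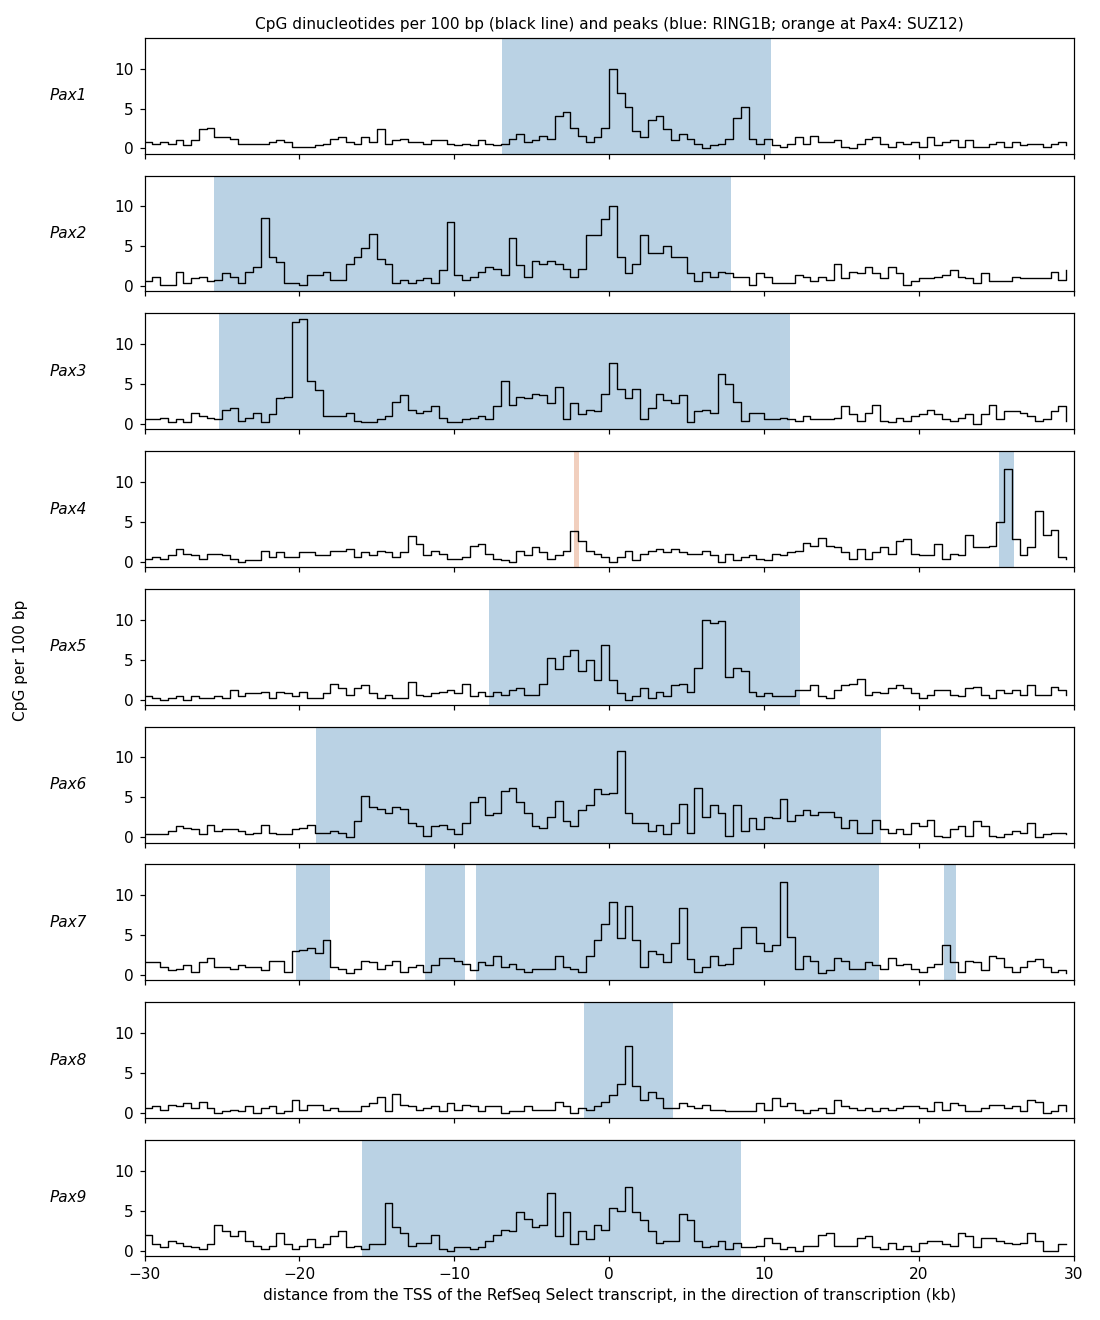
CpG dinucleotides per 100 bp in 500 bp bins, within 30 kb of the Select TSS of each Pax gene (kb, in the direction of transcription), with RING1B peaks shaded blue and, at Pax4, the SUZ12 peak shaded orange. Raised CpG density lies at several places inside the blue spans of 7 genes and at 1 place, 1324 bp downstream of the TSS, at Pax8. At Pax4 a blue span 25148 to 26149 bp downstream, also with raised CpG density, is the RING1B peak at the start of Arf5.

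Starts of 7 genes outside the family lay inside peaks at Pax loci, and 6 of them are non-coding. They are those named above, AI646519, 1700039E22Rik, Gm33152, Gm2102, 5730488B01Rik, Pax6os1 and Paupar, and each lay in peaks of all 3 lists. Neither count was set against the peaks of other genes or the non-coding share of all genes, so they describe these loci only. In flies, Pax proteins act in a network of eye regulators, whose mouse relatives Six2 to Six6 (homeodomain factors), Eya1 to Eya4 (coactivators with phosphatase activity), Dach1 and Dach2 (corepressors) were looked up for comparison. Of these 11 genes, 11 had a promoter RING1B peak, 9 had SUZ12 and 8 had PCGF2, and 8 had all 3. Six3 (26652 bp) and Six2 (16023 bp) had the widest RING1B peaks of the 11. Six4 lacked PCGF2, with 4665 bp of RING1B and 4355 bp of SUZ12. Eya3 and Dach2 had RING1B alone, 836 and 550 bp wide. The median RING1B width of the 11 genes was 5409 bp, against 25270 bp for the Pax genes.

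The genes most like 7 Pax genes were found by the distance in log2 width of the widest promoter peak over the 3 lists, among the genes with all 3 and leaving out genes in the same peak. For Pax6 it was Pax3, with the genes in the Pax3 peak, at 0.104. Pax1 was closest to Wnt5a (0.114), Pax9 to Lmx1b and C130021I20Rik in one peak (0.0726), Pax7 to Vax2 and Vax2os (0.0928) and Pax2 to Dlx1, Dlx2 and Dlx1as (0.154). Pax8 was closest to Kctd12 and Mir5130, at 0.0261, with 5785 bp of RING1B. Of these 7, Pax5 had the most distant nearest gene, Msx3, at 0.345, whose PCGF2 peak was 6212 bp against 7872 bp at Pax5.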

How the data were processed

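ChIP-seq reads were processed by the authors, who per the labels used Bowtie2, MACS2 and deepTools with the builds mm10, hg19 and dm6. According to the methods of the study, Bowtie 2 aligned reads to mm10 joined to the spike-in genome and MACS2 called broad peaks against Input. RING1B and SUZ12 peaks were called on merged replicates and kept if found in both lines, RING1B peaks also had to lose signal on tamoxifen in PRC1CKO cells, and PCGF2 peaks were kept if found in all replicates. The RING1B samples of PRC1CKO cells are not among the 118 samples, so the RING1B list rests in part on data from outside them. The deposited files give only a start and an end per peak, in bp (18643 RING1B, 7438 SUZ12 and 3680 PCGF2 peaks). Treated samples, other antibodies and depths were not used.

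TSSs were those of curated RefSeq transcripts on GRCm38.p6, 0 peaks ran past a chromosome end, and coordinates are from base 1. An overlap was at least 1 bp. CpG observed/expected was CpGs times length over the product of C and G counts. The members, lists and rules were chosen with earlier results of these data known. The rule named all Pax genes, those of Six2 to Six6, Eya1 to Eya4, Dach1 and Dach2 that lacked a list or were among the 3 widest, genes with a TSS in a Pax peak, and the gene nearest in width. Some items the rule selects are not reported here. Genes sharing a peak were left out of the last step, and peaks up to 20 kb away and CpG-rich segments were added after values were seen. Overlap code was tested on simulated data. Python 3.11.15, NumPy 2.4.6, pysam 0.24.0 and matplotlib 3.10.9 were used.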

Additional observations from a re-analysis of the deposited data

How the results depend on the processing

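Over 9 results on the Pax genes, 63 alternative values were computed, and the 32 counts of genes all stayed within 1.5 times the main count. The genes with all 3 lists were the same 8 Pax genes under every alternative. The SUZ12 count of 9 became 8 with a promoter of 1000 bp either side, with the TSS itself inside a peak, with an overlap of at least 500 bp and with peaks of at least 1000 bp, since Pax4 then had no peak. The median RING1B width of 25270 bp became 26897.5 bp when peaks at most 1000 bp apart were merged, and 29573.5 bp when all peaks at the promoter and gene body were summed. The median SUZ12 width of 25062 bp became 25680 bp with the 1000 bp promoter or the TSS itself, and 26298 bp with the sum. The share of SUZ12 sequence within RING1B moved from 96.4% to 96.54% with the 1000 bp promoter or with peaks of at least 1000 bp, and to 96.43% with merging. The share of PCGF2 sequence within SUZ12 stood at 99.8997% and moved to 99.9037% with a promoter of 5000 bp either side. No paired analysis was possible because each list is a single set of positions, which also left no replicate to omit. Width depends on the peak caller and on depth, which the lists do not give.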
